A study of Danio rerio with 18 samples.

Results

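The difference between male and female liver was compared between the AB and WIK laboratory strains of zebrafish, as the male minus female difference in AB minus that in WIK. All 12 AB and WIK arrays of the 18 arrays in the series entered the comparison, with 3 males and 3 females of each strain and 1 array per fish. The interaction was tested at 43603 probes, and 198 of them passed, of which 154 carried a gene symbol and stood for 124 genes. All fish were untreated adults of 12 to 18 months per the labels (the study's methods give a narrower range), kept in house for 2 generations after arrival as embryo batches, and sexed by eye from eggs or testes when the liver was taken. The 4 groups were AB males, AB females, WIK males and WIK females, with no allele, transgene or agent in any of them. The study's text places the collection of AB livers in the morning and that of WIK livers in the afternoon, so strain and time of day cannot be told apart in any value below. In bulk liver, fewer cells of a type and less RNA per cell cannot be told apart either.

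In egg-laying fish the female liver makes the yolk precursor vitellogenin under the control of estrogen, acting through the receptor esr1, and secretes it into the blood. That load passes through the ribosomes, the endoplasmic reticulum and the Golgi apparatus, so the genes of protein synthesis and secretion are among those known to differ between the sexes in fish liver. Male liver is known for higher levels of other secreted proteins and of enzymes that modify steroids. AB and WIK are separate laboratory strains with different founders.

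Values are log2 intensities after background correction and quantile normalization, and a difference of 1 on this scale is 2-fold. A positive interaction means that the male minus female difference was larger, or less negative, in AB than in WIK. A probe was called where the Benjamini-Hochberg adjusted p of the limma test over all probes was at most 0.05 and the interaction was at least 1 in size. By this rule 198 of 43603 probes (0.454%) were called, of which 58 (0.133%) were positive and 140 (0.321%) negative. At an unadjusted p under 0.05 there were 4716 probes, and the lowest adjusted p was 0.00456. The positive share was 29.3% of the calls. It was 46.4% (26 of 56 calls) on the scanner software's own processed signal and 51.9% (14 of 27 calls) with the arrays scaled to a common median, so the split of the calls by sign depended on the scaling. The processed signal also moved the median interaction of all probes by 0.387.

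The number of calls depended on single fish. It was 52 with WIK male 2 left out and 62 with WIK male 1 left out. Omitting AB female 2 gave 77 calls, AB female 1 gave 90, AB male 1 gave 116 and WIK female 2 gave 119, whereas the omission of AB female 3 gave 340. WIK males 1 and 2 were the closest arrays of any group, with a correlation of 0.993 over all probes. The spread of their differences over 16308 probes well above background on all 12 arrays (0.216, as the median absolute deviation) was above the 0.134 given by repeated spots of 1 probe within the arrays, a noise that leaves out variation between slides, so this does not settle whether the arrays held separate fish. They were counted as 2 fish because the labels give them as separate samples. With these 2 fish averaged and counted as 1, an alternative chosen after seeing the data, 57 probes were called. AB male 3 stood farthest from its group (0.62 and 0.637 from AB males 1 and 2), and 225 probes were called without it. The male and female of a strain that shared a replicate number also shared a slide. With this replicate block in the fit 20 probes were called, 12 of them among the 198. Of the 57 called probes described by name below, 6 kept the call with the block (tsr2, btg2, prkcbb, fads2 at the probe with its largest interaction, sc5d and ero1a), and the adjusted p of the other 51 was 0.0539 to 0.152.

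The labelled tissue was borne out by hepatocyte markers. The liver fatty acid binding protein fabp10a was at 17.17 to 18.31 on all 12 arrays, and all 13 hepatocyte markers used were well above background in every fish. Probes well above background made up 57.9 to 60.9% in AB males, 51.5 to 55.6% in AB females, 50.7 to 66.6% in WIK males and 44.9 to 58.2% in WIK females. Levels of pancreas, ovary, intestine and erythrocyte markers varied between the groups or between fish of a group. Many of their interactions had wide errors, and none of these markers was called. The summed linear level of 25 exocrine pancreas markers was 17300 to 39100 in AB males, 59000 to 186000 in AB females, 317000 to 2950000 in WIK males (the highest in WIK male 3) and 80600 to 579000 in WIK females. Of these 25 markers 0 were called, 6 were negative at an unadjusted p under 0.05, 24 had a negative interaction (list median -2.88, with a median difference of -1.50 in AB and 1.47 in WIK), and 23 to 25 were well above background in each fish. The sum of 19 ovary markers, of which 1 to 12 were well above background in the fish of the other groups and 19, 17 and 10 in WIK females 1, 2 and 3, was 1420 to 1740 in AB males, 1470 to 1740 in AB females, 1550 to 2250 in WIK males, and 31000, 6800 and 2560 in WIK females 1, 2 and 3. Again 0 of 19 were called, with 3 positive at an unadjusted p under 0.05 and a median difference of -0.09 in AB and -1.69 in WIK. Of 28 ovary markers on the array, the 19 were those well above background on at least 3 of the 12 arrays. A marker could enter through WIK females alone, so the WIK median and sum may in part follow from that filter. The egg coat gene zp3 was at 12.38, 10.49 and 6.07 in WIK females 1, 2 and 3 and at 6.0 to 6.5 in the other 9 fish. The oocyte gene zar1 was at 9.33, 7.21 and 6.48 in WIK females 1, 2 and 3 and at 6.03 to 6.26 in the other 9 fish. The oocyte gene bmp15, well above background on 4 arrays, stayed between 6.04 and 6.35 in all 12. Of 17 intestine markers 0 were called and 2 had a negative interaction, with a median difference of 0.31 in AB and -0.66 in WIK. The largest estimates were chia.3 (3.66), chia.1 (3.40) and chia.2 (3.17), with adjusted p of 0.565, 0.608 and 0.606. The intestine sum was 17600 to 41200 in AB males, 16300 to 38800 in AB females, 11300 to 32200 in WIK males and 9650 to 62000 in WIK females. The 12 erythrocyte markers summed to 126000 to 191000 in AB males, 28300 to 54500 in AB females, 81000 to 140000 in WIK males and 43200 to 55400 in WIK females. What part these tissues have in the results below was not tested.

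The 198 probes fell into 5 classes by the size of the sex difference in each strain, with 1 on the log2 scale as the boundary. In 111 probes the difference reached 2-fold in AB only, in 42 in WIK only, in 14 in both strains in the same direction, in 10 in both strains in opposite directions, and in 21 in neither. The sex difference itself passed the test in AB at 134 of the 198 probes, against 1817 of all 43603 (4.17%), and in WIK at 57, against 599 of all (1.37%). These shares share arrays with the interaction and are given as a description. Measured by which group mean lay farthest from the mean of the other 3, AB females were the high group at 71 probes, WIK males the high group at 35, AB males the low group at 30 and the high group at 24, AB females the low group at 15 and WIK females the high group at 15. WIK females were low at 4 and WIK males low at 4. The 44 called probes without a symbol ranged from -4.11 to 4.72, with 17 positive, and the 198 as a whole ranged from -6.29 to 4.72 with a median size of 1.79.

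**Figure D1:**
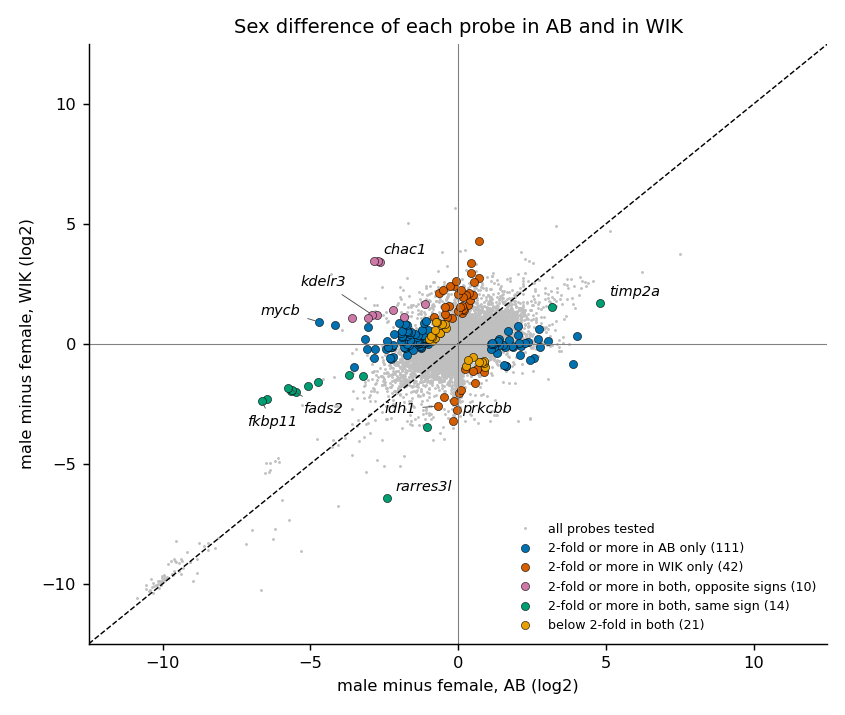
The male minus female difference in AB (x axis, log2) is plotted against that in WIK (y axis, log2) for each probe tested, with the 198 called probes coloured by class and the dashed line marking equal differences. Most called probes lie along the axes, 111 with a difference of 2-fold or more in AB only and 42 in WIK only, and the 10 with opposite signs lie at the upper left.

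In every class the sign held within batches. Scan days 1 and 2 each held 1 fish of all 4 groups, and all 198 called probes had the pooled sign of the interaction on both days. The 3 pair differences of AB and the 3 of WIK did not overlap at any of the 198, a state found at 19.9% of all probes. The choice of the 198 by the same arrays makes such a result likely, so nothing is read from it.

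All 10 probes with opposite sex differences were negative, that is, females were the higher sex in AB and males the higher sex in WIK. Of these, 9 carried the symbols of 6 genes (chac1 and arl5c with more than 1 probe, kdelr3, socs3a, bzw1b at -2.78 and zgc:171470 at -2.98). Over all 10 probes the median difference was -2.74 in AB and 1.32 in WIK. The AB difference passed the test at 9 of the 10 and the WIK difference at 4. The strongest was chac1, which encodes an enzyme that breaks down glutathione and is induced when amino acids run short or proteins misfold in the endoplasmic reticulum. It was at 8.27, 7.98 and 7.63 in AB males, 10.72, 11.14 and 10.55 in AB females, 13, 13.08 and 10.90 in WIK males and 8.36, 9.55 and 8.73 in WIK females. The sexes did not overlap in either strain, and WIK males 1 and 2 were above every other fish. The difference was -2.85 ± 0.54 (SE) in AB and 3.45 ± 0.54 in WIK, and the interaction of -6.29 ± 0.77, a 78.4-fold ratio of the male over female ratios, had an adjusted p of 0.0125. All 3 chac1 probes were called, and the call held when any 1 of the 12 fish was left out (adjusted p at most 0.0423, without WIK male 1) but not with the replicate block (adjusted p = 0.0587). The pancreas markers given above had the same signs as this class in both strains (medians of -1.50 in AB and 1.47 in WIK). Within WIK males, WIK females and AB males, however, the fish with the highest pancreas sum had the lowest chac1. In AB females the fish with the highest pancreas sum had the highest chac1. The part of the pancreas markers in this class was not tested.

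The KDEL receptor gene kdelr3, whose product returns escaped chaperones to the endoplasmic reticulum, gave all 4 of its probes as calls. At the probe with the largest interaction it was at 9.43, 9.62 and 8.42 in AB males, 12.05, 11.88 and 12.25 in AB females, 10.37, 10.46 and 10.14 in WIK males and 9.44, 9.17 and 8.76 in WIK females. AB females stood above all other fish, and WIK males stood above WIK females without overlap. The difference was -2.90 ± 0.29 in AB and 1.21 ± 0.29 in WIK, where it missed the threshold (adjusted p = 0.0731). The interaction was -4.11 ± 0.41 (adjusted p = 0.00834) and was kept in all 12 fits without 1 fish but not with the replicate block (adjusted p = 0.0587). The other 3 probes ran from -2.42 to -2.21 and had a sex difference below 2-fold in WIK.

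The other 2 genes of this class described here were low in AB males. The gene socs3a, a feedback inhibitor of cytokine and growth hormone signalling, was at 6.46, 6.6 and 6.74 in AB males, 8.51, 9.70 and 8.17 in AB females, 10.82, 11.05 and 9.70 in WIK males and 8.96, 9.48 and 8.86 in WIK females. AB males lay below every other fish by more than 1 unit. Its interaction was -3.62 ± 0.60 (adjusted p = 0.0348), but the WIK difference of 1.42 ± 0.43 missed the threshold (adjusted p = 0.153) and the interaction kept its call in 2 of 12 fits without 1 fish (adjusted p up to 0.111, without WIK male 2). The gene arl5c, a small GTPase of the ARF family, was at 7.31, 8.17 and 9.47 in AB males, 11.94, 12.08 and 11.70 in AB females, 13.68, 13.81 and 12.64 in WIK males and 12.06, 12.73 and 12.11 in WIK females. Both of its probes were called, at -4.67 and -3.97, while the WIK difference of 1.08 ± 0.50 had an adjusted p of 0.386, and the call held in 6 of 12 omissions (adjusted p up to 0.0940, without WIK male 2).

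**Figure D2:**
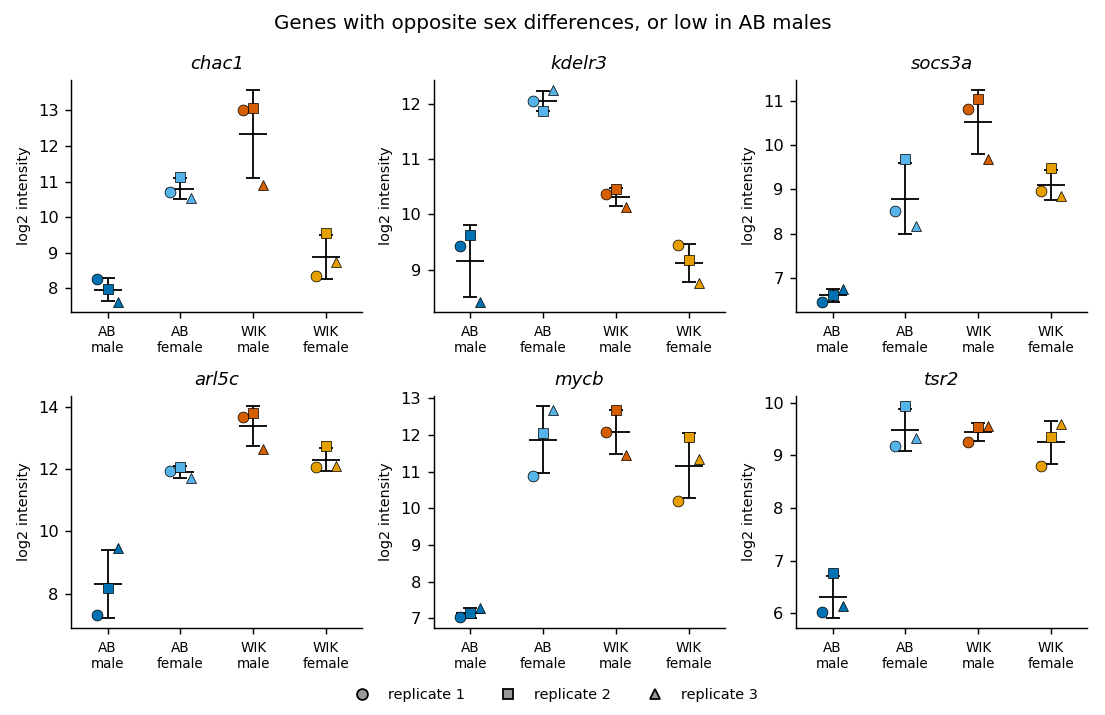
Log2 intensity of 6 genes in each of the 12 fish, by group on the x axis; symbols mark the replicate number and bars the mean and SD of 3 fish. In chac1 the sexes are reversed between the strains, while mycb lies at 7.03 to 7.28 in AB males and at 10.21 or above in the other 9 fish.

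Among the 111 probes with a 2-fold difference in AB only, 77 were negative and 34 positive. The 77 had a median difference of -1.63 in AB and 0.13 in WIK. Some were set apart by low AB males. The Myc gene mycb, a transcription factor that drives cell growth and ribosome production, was at 7.03, 7.14 and 7.28 in AB males, 10.88, 12.04 and 12.68 in AB females, 12.09, 12.68 and 11.46 in WIK males and 10.21, 11.94 and 11.34 in WIK females. AB males were about 3 units below the lowest other fish, and the other groups overlapped. The AB difference was -4.72 ± 0.53 and the WIK difference 0.92 ± 0.53 (adjusted p = 0.517), with an interaction of -5.64 ± 0.74 (adjusted p = 0.0162). Of its 3 probes 2 were called. The call held in 9 of 12 omissions and was lost without AB female 2, WIK male 1 or WIK male 2 (adjusted p up to 0.0612).

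Another 3 genes shared that pattern of low AB males. The gene tsr2, whose yeast counterpart escorts a ribosomal protein into the small subunit, was at 6.03, 6.76 and 6.15 in AB males, 9.18, 9.93 and 9.33 in AB females, 9.25, 9.53 and 9.55 in WIK males and 8.79, 9.34 and 9.60 in WIK females. In AB males it was well above background on 1 of 3 arrays. The interaction was -3.36 ± 0.38 (adjusted p = 0.0098) and kept its call in all 12 omissions, while the second tsr2 probe was not called (-1.10). The trans-Golgi gene hid1b was at 6.0, 6.05 and 5.95 in AB males, 8.62, 8.24 and 8.26 in AB females, 7.62, 7.64 and 7.49 in WIK males and 7.84, 7.40 and 7.96 in WIK females. None of the AB males had it well above background, so its level there is a bound and AB males were at least 5.04-fold below AB females, with an interaction of -2.23 ± 0.21 (adjusted p = 0.00716) that held in all 12 omissions but not with the replicate block (adjusted p = 0.0587). The other hid1b probe was well above background on fewer than 3 arrays. The gene cpn1, the catalytic subunit of the plasma enzyme carboxypeptidase N, was at 10.67, 11.18 and 10.79 in AB males, 13.22, 14.53 and 14.12 in AB females, 13.37, 13.80 and 12.93 in WIK males and 13.56, 13.62 and 13.55 in WIK females. Its interaction was -2.86 ± 0.45 (adjusted p = 0.0303), and its other 2 probes, at -3.19 and -2.60, were not called.

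Other genes of this class were set apart by high AB females, the high group at 71 of the 198 probes. Those described next were in part chosen after their values were seen, so they do not stand for the 71. Ufmylation attaches the small protein UFM1 to targets at the endoplasmic reticulum, ribosomes among them. Of its genes, ufm1 encodes the modifier, ufc1 the conjugating enzyme and ufsp2 the protease that matures and removes it. The conjugating enzyme ufc1 was at 10, 9.80 and 8.43 in AB males, 11.76, 11.25 and 11.18 in AB females, 9.15, 9.19 and 9.36 in WIK males and 8.16, 8.57 and 8.38 in WIK females. AB females were above all other fish, and the interaction was -2.85 ± 0.50 (adjusted p = 0.0443). The modifier ufm1 was at 8.35, 8.44 and 7.29 in AB males, 10.36, 10.30 and 10.57 in AB females, 8.77, 8.81 and 8.83 in WIK males and 8.28, 8.88 and 8.86 in WIK females. The AB difference was -2.39 ± 0.28 against 0.13 ± 0.28 in WIK, with an interaction of -2.52 ± 0.39 (adjusted p = 0.0303). At its brighter probe ufm1 was not called (-1.20, adjusted p = 0.251). The protease ufsp2 had an interaction of -1.61 ± 0.20 (adjusted p = 0.0145), with means of 8.66 ± 0.20 in AB males, 10.45 ± 0.09 in AB females, 8.62 ± 0.09 in WIK males and 8.80 ± 0.28 in WIK females (SD, n = 3 each), and its other probe was not called (-1.16). The calls held in 2 (ufc1), 6 (ufm1) and 11 (ufsp2) of 12 omissions, with adjusted p up to 0.131, 0.103 and 0.0548 in that order, each without WIK male 2. The genes ufm1 and ufsp2 were named after their values were seen.

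The gene slc35b1, an ATP carrier of that membrane, was at 8.79, 8.48 and 7.82 in AB males, 11.67, 10.90 and 11 in AB females, 6.95, 7.19 and 6.66 in WIK males and 7.20, 6.84 and 7.41 in WIK females. AB females were more than 2 units above every other fish, and AB males in turn lay above both WIK groups. Its difference was -2.82 ± 0.28 in AB and -0.22 ± 0.28 in WIK, and its interaction -2.61 ± 0.40 (adjusted p = 0.0287), whereas its other probe was at -0.64 and not called. The translocon-associated gene serp1 was at 11.65, 11.87 and 10.68 in AB males, 13.43, 13.25 and 13.28 in AB females, 11.27, 11.26 and 11.70 in WIK males and 10.69, 10.79 and 11.38 in WIK females. Both serp1 probes were called, at -2.37 and -2.07, with an adjusted p of 0.0452 at the first. The calls held in 5 (slc35b1) and 3 (serp1) of 12 omissions, and without WIK male 2 the adjusted p reached 0.10 and 0.115. Like hid1b above and mgat1a, arfgap3 and uso1 below, both were named after their values were seen.

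The folding oxidase gene ero1a, which supplies oxidizing power for disulfide bonds, had the smallest adjusted p of all probes (0.00456). It was at 6.38, 6.38 and 6.5 in AB males, 7.81, 7.58 and 7.61 in AB females, 6.25, 6.27 and 6.17 in WIK males and 6.0, 6.08 and 6.03 in WIK females. AB females stood above all other fish by over 1 unit. WIK males were well above background on 2 of 3 arrays and WIK females on none. The WIK difference of 0.19 ± 0.07 thus rests on values near background. The interaction was -1.44 ± 0.10 and held in all 12 omissions. The Golgi enzyme mgat1a, which starts complex N-glycans, was at 8.81, 8.91 and 8.76 in AB males, 10.14, 10.24 and 10.18 in AB females, 8.18, 8.58 and 8.36 in WIK males and 8.41, 8.28 and 8.17 in WIK females, with an interaction of -1.45 ± 0.14 (adjusted p = 0.00834) that also held in all 12 but not with the replicate block (adjusted p = 0.0587), and its other probe was not called (-0.65). The vesicle genes arfgap3, a regulator of coat removal, and uso1, a Golgi tether, were called at -1.68 and -1.44, with adjusted p of 0.0375 and 0.0341, and held in 3 and 2 of the omissions. The other 2 uso1 probes were at -0.28 and -0.23 and not called, the brighter of them with an adjusted p of 0.863.

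**Figure D3:**
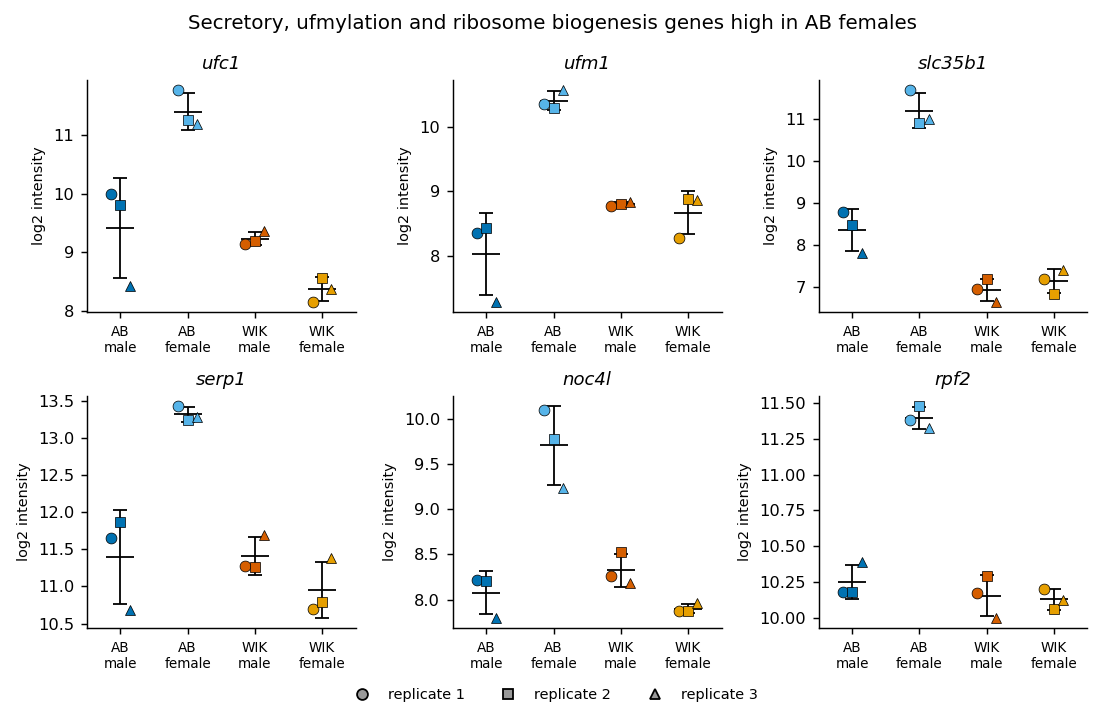
Log2 intensity of 6 genes in each of the 12 fish, by group on the x axis; symbols mark the replicate number and bars the mean and SD of 3 fish. All 3 AB females lie above the other 9 fish in each of the 6 genes, and slc35b1 is also higher in AB males than in either WIK group.

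Several ribosome biogenesis genes were called as well. The nucleolar gene noc4l, needed for the small subunit, was at 8.22, 8.21 and 7.80 in AB males, 10.10, 9.78 and 9.24 in AB females, 8.26, 8.53 and 8.18 in WIK males and 7.87, 7.87 and 7.96 in WIK females. Its interaction was -2.05 ± 0.28 (adjusted p = 0.0214) and held in 9 of 12 omissions, the exceptions being AB female 2, WIK male 1 and WIK male 2 (adjusted p up to 0.0777). The large-subunit factor rpf2 was at 10.18, 10.18 and 10.39 in AB males, 11.38, 11.48 and 11.33 in AB females, 10.17, 10.29 and 10 in WIK males and 10.20, 10.06 and 10.12 in WIK females. AB females were set off by almost 1 unit while the other 3 groups overlapped. The interaction of -1.17 ± 0.13 (adjusted p = 0.00929) held in all 12 omissions, as did that of the rRNA processing gene rbm19 (-1.25 ± 0.15, adjusted p = 0.0115). In rbm19 AB males (6.69 to 6.91) lay below both WIK groups and AB females (7.84 to 8.08) above them. Neither call held with the replicate block (adjusted p = 0.0671 for rpf2 and 0.0587 for rbm19), and their other probes, at -0.30 for rpf2 and at -0.59 and -0.35 for rbm19, were not called. The small-subunit gene pwp2h was called at -1.12 and held in 8 omissions, but not at its brightest probe (-1.25, adjusted p = 0.0969). Outside ribosome assembly, the spermidine synthase gene srm (-1.42) and the tRNA methyltransferase gene mettl1 (-1.34) were called and held in 6 and 2 omissions, with no other probe of either called. These 6 genes were named after their values were seen.

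The clock repressor nr1d2a, a nuclear receptor of the Rev-erb family, was at 6.30, 6.56 and 6.68 in AB males, 7.79, 9.04 and 7.92 in AB females, 10.46, 10.83 and 9.92 in WIK males and 9.73, 9.58 and 9.51 in WIK females. The 4 groups did not overlap, with AB males lowest and WIK males highest, and the WIK sex difference of 0.80 missed the threshold (adjusted p = 0.310). Its interaction was -2.53 ± 0.45 (adjusted p = 0.0492) and held in 3 of 12 omissions (adjusted p up to 0.141, without WIK male 2). Its other 2 probes, at -1.06 and -0.97, were not called. Of 33 clock genes it was the only one called at the brightest probe, against 0.649% of all genes called negative. At an unadjusted p under 0.05 in limma, 5 of the 33 were positive and 7 negative. Of all 43603 probes 4716 passed in either direction, but that set also holds dim probes and several probes of a gene. No share by sign over all genes was counted at that threshold, so nothing is read from these counts. The median interaction over the 33 was 0.00, and 17 had a negative estimate. A dimmer probe of the clock list gene nfil3-6 was also called (-1.30, adjusted p = 0.0343), while its brightest was not (-1.99, adjusted p = 0.131).

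The 34 positive probes with a 2-fold difference in AB only had a median difference of 1.78 in AB and -0.03 in WIK. In some of them AB males were the high group. The gene tbx2b, a T-box transcription factor, was at 11.58, 12.12 and 12.12 in AB males, 9.18, 9.24 and 10.16 in AB females, 8.39, 8.30 and 9.05 in WIK males and 9.69, 9.35 and 8.68 in WIK females. AB males stood over 1 unit above all other fish. The interaction was 3.08 ± 0.48 (adjusted p = 0.0306), with 2 of 3 probes called. The extracellular superoxide dismutase gene sod3a was at 12.78, 12.36 and 12.81 in AB males, 10.08, 8.76 and 9.97 in AB females, 10.51, 9.97 and 10.42 in WIK males and 10.14, 10.43 and 9.99 in WIK females, and its interaction was 2.93 ± 0.46 (adjusted p = 0.0297). The chemokine gene ccl39.1 had the largest interaction of this set among named genes, 3.14 ± 0.47 (adjusted p = 0.0262), with 9.49, 8.4 and 8.80 in AB males, 6.30, 6.34 and 6.36 in AB females, 6.37, 6.43 and 7.54 in WIK males and 7.25, 7.60 and 7.22 in WIK females. The calls of tbx2b, sod3a and ccl39.1 held in 4, 7 and 6 of 12 omissions, and without WIK male 2 their adjusted p reached 0.105, 0.10 and 0.0915 in that order. The other probe of sod3a, at 1.57, and those of ccl39.1, at 1.77 and 1.84, were not called.

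In the transforming growth factor beta and bone morphogenetic protein pathways 3 genes were called at their brightest probe, all named after their values were seen. The decoy receptor gene bambia was at 10.99, 10.88 and 10.83 in AB males, 8.94, 9.17 and 9.12 in AB females, 9.04, 9.32 and 9.29 in WIK males and 9.30, 9.77 and 8.79 in WIK females, with an interaction of 1.90 ± 0.29 (adjusted p = 0.0262). The target gene id3, an inhibitor of helix-loop-helix factors, was at 11.15, 11.49 and 11.44 in AB males, 9.65, 9.98 and 10.49 in AB females, 9.86, 10.01 and 9.73 in WIK males and 10.28, 9.96 and 10.51 in WIK females (interaction 1.71 ± 0.30, adjusted p = 0.0447). In both genes AB males lay above the other 9 fish, and the other probe of each, at 0.99 for bambia and 0.78 for id3, was not called. The type I receptor gene tgfbr1a was instead lowest in AB females, with means of 10.52 ± 0.36 in AB males, 8.93 ± 0.15 in AB females, 9.71 ± 0.04 in WIK males and 9.82 ± 0.31 in WIK females (SD, n = 3 each), and both of its probes were called, at 1.69 and 1.59. The calls held in 5 (bambia), 1 (id3) and 7 (tgfbr1a) of 12 omissions, with adjusted p up to 0.0860, 0.119 and 0.105 in that order.

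In other positive genes of this class AB females were the low group. The sulfotransferase gene sult3st3 was at 13.84, 14.51 and 13.10 in AB males, 11.37, 11.26 and 10.54 in AB females, 13.27, 13.38 and 12.73 in WIK males and 12.99, 13.15 and 13.62 in WIK females. The cytochrome P450 gene cyp2aa12 was at 10.50, 10.29 and 11.40 in AB males, 8.76, 8.46 and 8.76 in AB females, 11.18, 10.83 and 10.87 in WIK males and on average 10.94 ± 0.22 in WIK females (SD, n = 3). In both genes the AB females lay below the other 9 fish and the other 3 groups overlapped. The interactions were 2.89 ± 0.51 for sult3st3 and 2.04 ± 0.36 for cyp2aa12, with adjusted p of 0.0467 and 0.0476, and they held in 1 and 2 of 12 omissions (adjusted p up to 0.111 and 0.151, without WIK male 2). Their other probes, at 2.01 for sult3st3 and 0.06 to 2.35 for cyp2aa12, were not called. The factor VII-like coagulation gene f7l had a difference of 2.03 ± 0.15 in AB and 0.75 ± 0.15 in WIK, where it was below 2-fold, with an interaction of 1.28 ± 0.21 (adjusted p = 0.0343), and its other 2 probes, at 0.54 and 1.49, were not called.

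The 42 probes with a 2-fold difference in WIK only were 30 negative and 12 positive. In the negative ones the median difference was 0.12 in AB and 2.00 in WIK, and WIK males were the high group in each of the 6 genes described here. The gene btg2, which restrains cell proliferation, was at 6.29, 6.4 and 6.51 in AB males, 6.63, 7.19 and 6.93 in AB females, 9.93, 10.17 and 9.36 in WIK males and 7.68, 7.94 and 7.08 in WIK females. WIK males were more than 1 unit above all other fish. The interaction was -2.77 ± 0.36 (adjusted p = 0.0158) and held in 10 of 12 omissions, the exceptions being WIK males 1 and 2 (adjusted p up to 0.0553), while its other 2 probes, at -1.78 and -1.56, were not called. The pyruvate dehydrogenase kinase gene pdk2b, a brake on the oxidation of glucose, was at 6.5, 6.56 and 7.08 in AB males, 7.26, 7.47 and 7.29 in AB females, 9.29, 9.56 and 9.0 in WIK males and 7.42, 7.29 and 6.82 in WIK females. Its interaction of -2.73 ± 0.29 (adjusted p = 0.00929) held in all 12 omissions but not with the replicate block (adjusted p = 0.0539), and its other 2 probes, at -2.62 and -1.80, were not called.

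The translational repressor gene eif4ebp3l, which binds the cap-binding factor eIF4E, was at 7.45, 7.99 and 7.60 in AB males, 7.76, 8.11 and 7.94 in AB females, 10.01, 10.72 and 10.26 in WIK males and 7.34, 8.0 and 8.34 in WIK females (interaction -2.69 ± 0.38, adjusted p = 0.0228, held in 9 of 12 omissions). The G protein regulator gene rgs5b was at 6.12, 6.21 and 6.38 in AB males, 6.27, 6.09 and 6.39 in AB females, 8.47, 8.80 and 8.24 in WIK males and 6.6, 6.35 and 6.32 in WIK females. Its signal outside WIK males was near background, and its interaction of -2.09 ± 0.21 (adjusted p = 0.00834) held in all 12 but not with the replicate block (adjusted p = 0.0557). The other probes of eif4ebp3l (-2.22) and rgs5b (-1.19) were not called. The genes ucp2 and stk35, named after their values were seen, were also highest in WIK males. The mitochondrial carrier gene ucp2 was at 8.2, 7.91 and 8.75 in AB males, 7.60, 7.57 and 7.56 in AB females, 10.50, 10.80 and 10.76 in WIK males and 8.24, 8.11 and 7.51 in WIK females, with an interaction of -2.03 ± 0.32 (adjusted p = 0.0306), and its other 2 probes, at -1.76 and -1.67, were not called. The kinase gene stk35 had 2 of 3 probes called, at -1.54 and -1.30. The pancreas sum was highest in WIK male 3 (2950000), while WIK males 1 and 2 (317000 and 390000) lay below WIK female 1 (579000). Its part in these genes was not tested.

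In the 12 positive probes the median difference was 0.07 in AB and -1.99 in WIK. The protein kinase C beta gene prkcbb was at 6.32, 6.16 and 6.08 in AB males, 6.76, 6.10 and 6.19 in AB females, 6.39, 6.24 and 6.20 in WIK males and 9.67, 9.17 and 9.60 in WIK females. The 3 WIK females stood more than 2 units above the other 9 fish, whose values lay near background. The ovary marker sum was also highest in WIK females, but at 31000, 6800 and 2560 in WIK females 1, 2 and 3, among which prkcbb was close to level. The intestine markers had a median difference of -0.66 in WIK. The part of either tissue in this and the next genes was not tested. The difference was -0.16 ± 0.18 in AB and -3.20 ± 0.18 in WIK, and the interaction of 3.04 ± 0.26 (adjusted p = 0.00514) held in all 12 omissions. The other prkcbb probe was well above background on fewer than 3 arrays, so the call rests on 1 probe. The isocitrate dehydrogenase gene idh1, a cytosolic source of NADPH that was named after its values were seen, was at 9.63, 9.26 and 8.80 in AB males, 9.96, 9.62 and 10.11 in AB females, 9.24, 8.78 and 9.23 in WIK males and 11.88, 11.40 and 11.75 in WIK females. Of its 3 probes 2 were called, at 1.92 and 1.72, with an adjusted p of 0.0383 at the first, and the first held in 2 of 12 omissions.

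The sterol desaturase gene sc5d, of the last steps of cholesterol synthesis, was at 9.02, 8.53 and 9.05 in AB males, 8.33, 7.39 and 8.22 in AB females, 9.06, 8.81 and 9.25 in WIK males and 10.07, 10.07 and 10.52 in WIK females. AB females were below AB males and WIK females above WIK males without overlap. The difference was 0.89 ± 0.26 in AB (adjusted p = 0.0688) and -1.18 ± 0.26 in WIK (adjusted p = 0.0490), and the interaction was 2.07 ± 0.36 (adjusted p = 0.0441, held in 2 of 12 omissions), with its other probe not called (0.85). The LIM protein gene csrp1b was at 7.98, 8.91 and 7.88 in WIK females and well above background in 2 of the other 9 fish, none of them an AB female. It passed the filter on dim probes through WIK females alone, so its interaction of 2.09 ± 0.35 (adjusted p = 0.0348) rests on values near background in the other groups. The gene sdhaf2, an assembly factor of succinate dehydrogenase, was low in WIK males instead, with 9.36, 9.30 and 8.97 in AB males, 8.97, 9.29 and 9.49 in AB females, 5.98, 6.09 and 6.97 in WIK males and 8.58, 9.41 and 9.31 in WIK females. In WIK males its probe was well above background on 1 of 3 arrays, its 2 other probes were not called, and its interaction was 2.71 ± 0.42 (adjusted p = 0.0280). The calls of csrp1b and sdhaf2 held in 4 of 12 omissions each.

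**Figure D4:**
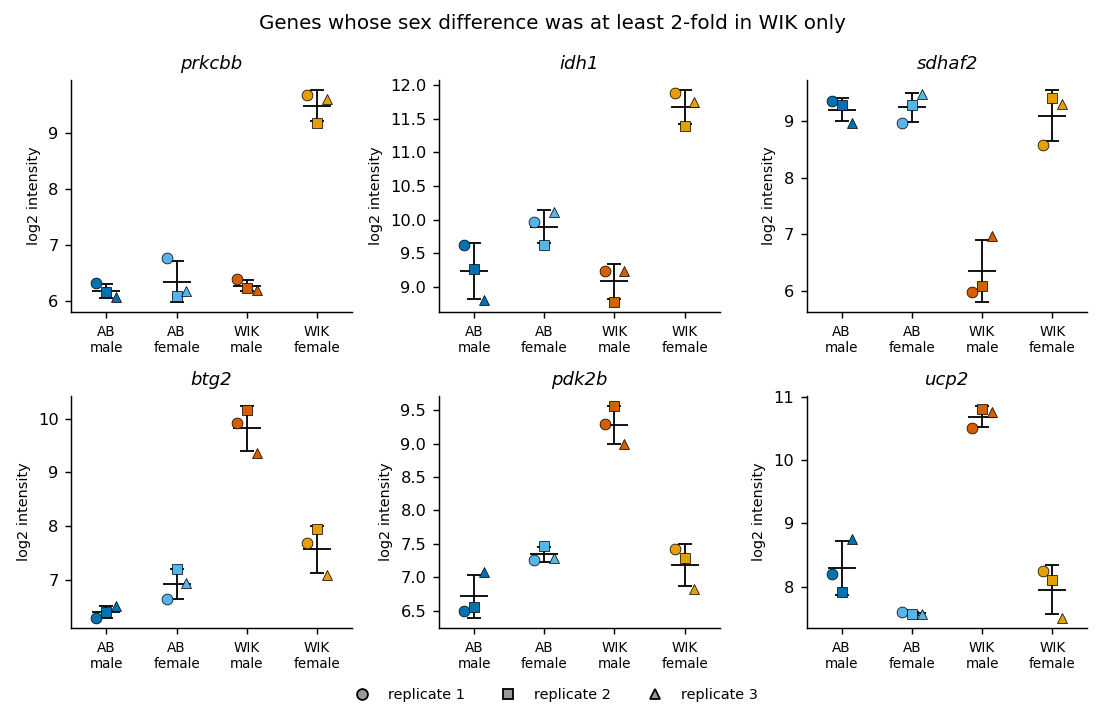
Log2 intensity of 6 genes in each of the 12 fish, by group on the x axis; symbols mark the replicate number and bars the mean and SD of 3 fish. WIK females are the high group in prkcbb and idh1, WIK males the low group in sdhaf2 (5.98 to 6.97) and the high group in btg2, pdk2b and ucp2.

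In 14 probes the sexes differed by 2-fold or more in both strains in the same direction but by unequal amounts. The desaturase gene fads2, which makes polyunsaturated fatty acids, gave 6 of its 7 probes as calls, between -3.93 and -3.15, and the other probe was at 0.49. At the probe with the largest interaction it was at 8.66, 8.99 and 8.21 in AB males, 14.44, 14.24 and 14.42 in AB females, 13.55, 13.14 and 13.41 in WIK males and 15.58, 14.88 and 15.09 in WIK females. Females were higher in both strains without overlap, and AB males stood more than 4 units below any other fish. The difference was -5.75 ± 0.22 in AB (53.7-fold) and -1.82 ± 0.22 in WIK (3.53-fold), and the interaction of -3.93 ± 0.31 (adjusted p = 0.00506) held in all 12 omissions. At the brightest fads2 probe the interaction was -3.15 ± 0.52 (adjusted p = 0.0343) and held in 1 of 12.

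The prolyl isomerase gene fkbp11, of the secretory pathway, was at 7.64, 7.61 and 7.93 in AB males, 14.96, 13.91 and 14.27 in AB females, 10.31, 10.36 and 10.80 in WIK males and 11.70, 12.90 and 13.98 in WIK females. The difference was -6.65 ± 0.49 in AB (101-fold) and -2.37 ± 0.49 in WIK (5.18-fold). Both probes were called, the first at -4.28 ± 0.69 (adjusted p = 0.0325, held in 4 of 12 omissions). The lipase maturation gene lmf2b had a difference of -3.68 in AB and -1.28 in WIK (adjusted p = 0.0659 in WIK), with an interaction of -2.40 ± 0.42 (adjusted p = 0.0459). The gene mid1ip1b, which promotes fatty acid synthesis, had -3.21 in AB and -1.34 in WIK, with an interaction of -1.87 ± 0.29 (adjusted p = 0.0306) and its other probe not called (-1.50). Among positive probes, timp2a, an inhibitor of matrix metalloproteinases, was at 12.14, 13.21 and 13.42 in AB males, 8.14, 8.57 and 7.66 in AB females, 9.67, 9.63 and 9.67 in WIK males and 7.98, 8.18 and 7.70 in WIK females. Males were higher by 4.80 ± 0.32 in AB and by 1.71 ± 0.32 in WIK, and the interaction was 3.09 ± 0.46 (adjusted p = 0.0257), with its 2 other probes not called. The gene zgc:101540 was likewise higher in males, by 3.17 ± 0.20 in AB and 1.54 ± 0.20 in WIK (interaction 1.63 ± 0.28, adjusted p = 0.0392).

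The gene rarres3l went the other way, with a larger difference in WIK. It was at 9.12, 10.33 and 8.22 in AB males, 11.39, 11.50 and 12.06 in AB females, 6.32, 6.43 and 6.79 in WIK males and 12.84, 12.68 and 13.35 in WIK females. Females were higher in both strains without overlap, by 5.37-fold in AB and 86.8-fold in WIK. The interaction was 4.02 ± 0.63 (adjusted p = 0.0306), the second probe (3.13) was not called, and the call held in 4 of 12 omissions (adjusted p up to 0.105, without WIK male 2).

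The 21 probes below 2-fold in both strains had opposite signs in AB and WIK, which the class and the cutoff on the interaction fix. The caveolin gene cav1 was at 8.70, 8.71 and 9.24 in AB males, 7.75, 8.08 and 8.08 in AB females, 7.69, 7.53 and 8.36 in WIK males and 8.78, 8.56 and 9.09 in WIK females. The sexes were apart in AB and in WIK, in reversed order (0.92 ± 0.24 in AB and -0.95 ± 0.24 in WIK, interaction 1.87 ± 0.34, adjusted p = 0.0496). The phosphatase subunit gene ppp1r10 (1.68 ± 0.28, adjusted p = 0.0343) and hjv, a coreceptor that controls the iron hormone hepcidin (1.16 ± 0.18, adjusted p = 0.0316, named after its values were seen), were also positive, and hjv missed the call at its brighter probe (1.31, adjusted p = 0.209). The cargo receptor gene tmed9 was negative (-1.66 ± 0.22, adjusted p = 0.0162), with 10.23, 10.20 and 10.11 in AB males, 10.82, 10.81 and 11.16 in AB females, 9.89, 9.97 and 9.56 in WIK males and 8.83, 8.67 and 9.19 in WIK females. Its call held in 10 of 12 omissions, the exceptions being WIK males 1 and 2 (adjusted p up to 0.0640). The mitochondrial seryl-tRNA synthetase gene sars2 was at -1.60 ± 0.24 (adjusted p = 0.0257). The other probes of cav1 (0.39), ppp1r10 (0.50), tmed9 (-1.17 and -1.11) and sars2 (-1.43 and -0.09) were not called.

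The best known sex markers of liver were not among the calls. The steroid dehydrogenase gene hsd17b3, which makes testosterone, was at 11.32, 10.66 and 11.61 in AB males, 5.91, 6.19 and 6.07 in AB females, 10.53 to 11.18 in WIK males and 6.21, 6.29 and 6.23 in WIK females. Its difference was 5.14 ± 0.23 in AB and 4.70 ± 0.23 in WIK, and its interaction of 0.45 ± 0.33 missed the threshold (adjusted p = 0.708). It was well above background in 1 of 3 AB females and 2 of 3 WIK females, so these values rest on female levels near background. The other hsd17b3 probe, at 1.34, was not called either. The estrogen receptor gene esr1 was at 6.53, 6.80 and 6.48 in AB males, 12.49, 13.15 and 12.48 in AB females, 6.98, 6.89 and 6.87 in WIK males and 11.94, 11.04 and 12.02 in WIK females, with an interaction of -1.35 ± 0.37 (adjusted p = 0.177). The other 3 esr1 probes, at -0.24 to 0.36, were not called. Of the vitellogenin genes, vtg2, vtg4, vtg5, vtg6 and vtg7 had interactions of -0.33 to 0.03 with adjusted p of 0.972 to 0.996. The transcript NM_001044897, which has no symbol in the tables used, was at 6.72, 10.28 and 6.43 in AB males, 17.97, 18.28 and 18.20 in AB females, 6.35, 6.80 and 11.15 in WIK males and 17.92, 18.23 and 18.04 in WIK females. AB male 2 and WIK male 3 lay 3 or more units above the other males of their strain, and the interaction of -0.38 ± 1.80 (adjusted p = 0.965) has a wide error. The other 12 probes of this transcript, at -1.33 to 0.03, were not called. A p that misses the threshold does not show that the strains were alike.

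Gene lists were counted at the brightest detected probe of each gene, 10476 genes in all. Over them 29 (0.277%) were called positive and 68 (0.649%) negative, with a median interaction of -0.03. Of 58 genes for entry into the endoplasmic reticulum, folding and transport, 0 were positive and 3 negative (kdelr3, tmed9 and ero1a), 48 had a negative estimate and the median was -0.39. The sex difference in AB was called female higher in 21 of the 58, against 4.13% of all genes, and in WIK in 5, against 1.15%. Among uncalled members the values ran from -1.57 (adjusted p = 0.113) for srp14, a subunit of the signal recognition particle, to 0.85 (adjusted p = 0.735) for p4hb, a disulfide isomerase. Male higher calls were 0 of 58 in AB, against 3.58% of all genes, and 1 of 58 in WIK, against 1.22%. The summed linear level of the list was 380000 to 517000 in AB males, 562000 to 731000 in AB females, 197000 to 220000 in WIK males and 315000 to 407000 in WIK females. Females were thus above males in both strains and AB above WIK in both sexes.

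A further 4 lists drawn up after the called probes had been seen described the rest of that set, and their counts are no independent evidence of its direction. Of 79 ribosome biogenesis genes, 4 were called negative (mycb, noc4l, rbm19 and rpf2) and 0 positive, 78 had a negative estimate and the median was -1.03. In AB 34 of the 79 were called female higher, against 4.13% of all genes. In WIK 1 was, a count that says little at a share of 1.15% over all genes. The summed level of the 79 was 66600 to 83400 in AB males, 186000 to 266000 in AB females, 68300 to 78500 in WIK males and 79400 to 98000 in WIK females. AB females were apart from the other 3 groups, which overlapped or lay close. Of 74 genes of Golgi transport and glycosylation, 8 were called negative (kdelr3, mgat1a, slc35b1, yipf5, slc35e1, gmppab, arfgap3 and tmed4) and 0 positive, with a median of -0.55, and their sum was 43300 to 46000 in AB males, 84600 to 89800 in AB females, 35100 to 36700 in WIK males and 38600 to 46700 in WIK females. At the brightest probe 2 of 8 ufmylation genes were called negative (ufc1 and ufsp2) and 7 had a negative estimate, with a median of -1.41. Of 40 genes of the transforming growth factor beta and bone morphogenetic protein pathways 3 were called positive and 0 negative, with a median of 0.27. The 15 endothelium and stellate cell markers had 0 calls, a median of 0.25 and 12 positive estimates, and 2 were positive and 1 negative at an unadjusted p under 0.05 in limma. The largest estimates among them were acta2 (1.73), tagln (1.43), col1a2 (1.18) and hand2 (1.09), with a difference of 1.97, 1.31, 1.03 and 1.24 in AB and of 0.23, -0.12, -0.16 and 0.16 in WIK. Their sum was 4460 to 4830 in AB males, 2150 to 2770 in AB females, 3320 to 5420 in WIK males and 2780 to 4680 in WIK females, and the part of these cells in the pathway's values was not tested. The medians of the 4 lists and of the endoplasmic reticulum list kept their sign in all 26 alternatives run. The choice of the 4 lists from these same arrays makes that likely, so it is no separate support. The call of kdelr3 also counts in both the endoplasmic reticulum and the Golgi list. The fold cutoffs, the eBayes options, the limit to detected probes and the blocks barely change an estimate, so a sign could hardly turn there. With median scaling, however, 0 of the ribosome biogenesis genes and 0 of the Golgi genes were called. With the replicate block the same counts were 0 and 0. The pancreas markers had a median difference of -1.50 in AB and 1.47 in WIK, and their part in these lists was not tested.

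Another list of the same kind, on the response to lack of amino acids and to misfolded proteins, had 2 of 29 genes called negative (chac1 and sars2) and a median of -0.41. Among lists drawn up for liver function, cytochrome P450 had 1 of 56 called positive (cyp2aa12) and a median of 0.37, and conjugating enzymes had 1 of 48 (sult3st3) and a median of 0.17. Over all genes 0.277% were called positive and 0.649% negative. At an unadjusted p under 0.05 in limma, with no fold cutoff, 16 of the 56 were positive and 1 negative, and 11 of the 48 positive and 1 negative. The shares of calls do not apply to such unadjusted counts, in these or other lists. The share at that threshold by sign over all genes was not counted, so nothing is read from them. Complement and coagulation had 1 of 45 positive (f7l), cholesterol synthesis 1 of 23 positive (sc5d), fatty acid synthesis 1 of 18 negative (fads2) and the growth hormone axis 1 of 22 negative (socs3a). Fatty acid oxidation had 0 of 25 called at a median of 0.67, with 5 positive and 2 negative at an unadjusted p under 0.05 in limma, and 5 of the 25 were called male higher in AB, against 3.58% of all genes. The list gene pdk2b was called negative at a dimmer probe (-2.73, limma adjusted p = 0.00929) but not at its brightest. In WIK 0 of the 25 were called male higher, a count that says little at a share of 1.22% over all genes. With median scaling the medians of fatty acid oxidation (-0.19) and cytochrome P450 (-0.12) became negative, as did that of conjugating enzymes, which was also negative without WIK female 3. The 86 cytosolic ribosomal protein genes had 0 calls and a median of -0.10, and 4 of them were negative at an unadjusted p under 0.05.

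**Figure D5:**
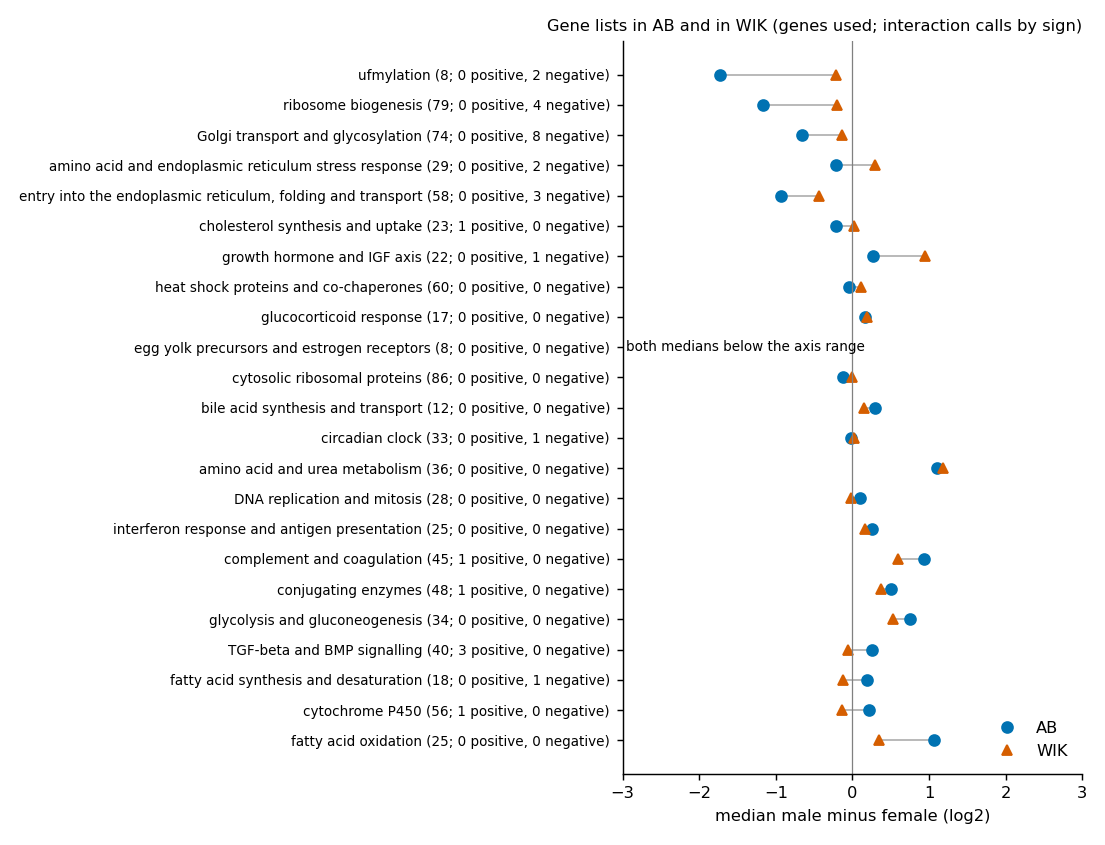
Median male minus female difference over the genes of each list (x axis, log2) in AB (circles) and WIK (triangles), with the genes used and the interaction calls of each sign after each name. The ufmylation, ribosome biogenesis and Golgi lists have medians of -1.73, -1.17 and -0.66 in AB and of -0.21, -0.20 and -0.14 in WIK.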

How the data were processed

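One-colour Agilent arrays of 45220 features measured liver RNA of 18 zebrafish, of which the 12 AB and WIK arrays were used here. For every array the authors deposited scanner output with the linear intensity per spot and local background, not normalized between arrays. A log2 table of 28461 entries, which the authors made with limma by background correction, normalization and averaging, served as an alternative. Over 28404 accessions its columns correlated at 0.9926 to 0.9989 with the values computed here. Here the median spot intensity was corrected with normexp (offset 50) and quantile-normalized over the 12 arrays. Outlier spots were left out, 1417 control features removed and spots of a probe averaged in limma 3.58.1 (R 4.3.3), which gave 43603 probes. At 96 probes at least 1 array had no value, and the fit used the remaining arrays. No spot was saturated, and dim probes and 3 fish per group limit the precision. The scanner's share of spots well above background stands in place of a depth.

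One limma fit held the 4 groups, without a block. Correlations of deviations between the male and female of 1 number were 0.292, -0.00327 and -0.0768 in AB and 0.208, 0.121 and 0.109 in WIK. Fish of different numbers gave -0.229 to 0.254 in AB and -0.186 to 0.0335 in WIK, below each matched value of WIK. The consensus correlation within a slide was 0.176. The numbers were not treated as pairs because the study's methods name no block, and these values do not settle that choice. With the block 20 probes were called in place of 198. Alternatives were the fold cutoff, the replicate block, slide and scan day, all 18 arrays, other signals and scalings, the authors' table, detected probes, outlier spots, the eBayes options and each fish left out. Of the 0 columns of per-sample values without a sample, none was used.

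Symbols came by accession from a RefSeq gene table for 26043 probes (59.7%), and its coordinates and any sequence were not used. Named genes were, among called probes with a symbol and well above background on at least 3 arrays, the 4 largest interactions of each sign in each class (2 in the class below 2-fold in both), every list gene whose brightest probe was called, and hsd17b3, esr1 and the transcript NM_001044897. Other named genes were chosen after their values were seen. The members and lists were chosen with earlier results of these data known. Figures were drawn with matplotlib 3.10.9.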

Additional observations from a re-analysis of the deposited data

Results flagged for a closer look

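The sex difference differed between AB and WIK, by the limma interaction test, at 198 probes (58 positive and 140 negative) and at the 57 named probes below, each given by its interaction on the log2 scale. Of these 57, 12 kept their call whichever of the 12 fish was left out. They were chac1 (-6.29), kdelr3 (-4.11), fads2 at the probe with its largest interaction (-3.93), tsr2 (-3.36), pdk2b (-2.73), hid1b (-2.23), rgs5b (-2.09), mgat1a (-1.45), ero1a (-1.44), rbm19 (-1.25), rpf2 (-1.17) and prkcbb (3.04). With the replicate block 4 of these 12 kept the call (fads2, tsr2, ero1a and prkcbb), and the other 8 had an adjusted p of 0.0539 to 0.0671. Of 24 alternatives besides the fold cutoffs, the 12 omissions included, the call held in 18 for rpf2 (limma adjusted p up to 0.779). It held in 23 for fads2 and tsr2, with the rest of the 12 genes in between, so none was called in every alternative. The other 45 each lost the call without WIK male 2, and most of them without other fish too.

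Among those 45 the negative probes included mycb (-5.64), arl5c (-4.67), fkbp11 (-4.28), socs3a (-3.62), fads2 at its brightest probe (-3.15), cpn1 (-2.86), ufc1 (-2.85), btg2 (-2.77), eif4ebp3l (-2.69), slc35b1 (-2.61), nr1d2a (-2.53), ufm1 (-2.52), lmf2b (-2.40), serp1 (-2.37), noc4l (-2.05) and ucp2 (-2.03). Smaller negative values were those of mid1ip1b (-1.87), arfgap3 (-1.68), tmed9 (-1.66), ufsp2 (-1.61), sars2 (-1.60), stk35 (-1.54), uso1 (-1.44), srm (-1.42), mettl1 (-1.34) and pwp2h (-1.12). The positive probes were rarres3l (4.02), ccl39.1 (3.14), timp2a (3.09), tbx2b (3.08), sod3a (2.93), sult3st3 (2.89), sdhaf2 (2.71), csrp1b (2.09), sc5d (2.07), cyp2aa12 (2.04), idh1 (1.92), bambia (1.90), cav1 (1.87), id3 (1.71), tgfbr1a (1.69), ppp1r10 (1.68), zgc:101540 (1.63), f7l (1.28) and hjv (1.16). Groups of 3 fish are too small for a test of single outlying fish.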

How the results depend on the processing

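Against 198 calls (58 positive, 140 negative), the count was 87 (26, 61) at a 4-fold cutoff, 20 (5, 15) with the replicate block, which is also the slide as a fixed block, 357 (120, 237) with the slide as a random block, 56 (26, 30) on the scanner's processed signal, 27 (14, 13) with median scaling and 109 (48, 61) in the authors' log2 table. With WIK males 1 and 2 averaged, an alternative chosen after seeing the data, it was 57 (11, 46). The cause of these changes was not tested. Leaving out each fish gave 52 to 340 calls, 10 to 100 positive and 42 to 266 negative. The highest positive count was without WIK female 3. Of the 20 calls with the paired analysis 12 were among the 198, of the 56 on the processed signal 32, and of the 27 with median scaling 18. The processed signal moved the median interaction of all probes by 0.387, so its negative values understate the change relative to other probes. All 57 called named probes kept their sign in every alternative, though the fold cutoffs, eBayes options, detected-probe limit and blocks barely change an estimate. The transcript NM_001044897, not called, turned positive on the processed signal (0.22), in the authors' table (0.13) and in fits without AB male 1 (0.16), AB male 3 (0.31) or WIK male 3 (1.14), in a range of -1.62 to 1.14 over the 12 omissions. Probes near background have only a bound on their level, and 3 fish per group leave small interactions undetected.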

Other observations

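The third strain of the series, TU, took no part in the choice of the 198 probes. In a normalization of all 18 arrays the male minus female difference of TU lay closer to that of AB at 62 of the 198 probes (31.3%) and closer to that of WIK at the others. Without TU female 3, whose array stands apart from the other TU females, it was closer to AB at 56 (28.3%). At 111 of the 198 the sex difference reached 2-fold in AB only, against 42 in WIK only. A TU difference near 0 thus falls closer to WIK at most of them by the choice of probes. No share over all probes was computed, so nothing is read from these counts. TU livers were collected in the afternoon, as those of WIK were. At the called probe of each gene the TU difference, with and without TU female 3, was -0.40 and 0.28 for chac1, 0.24 and 0.09 for kdelr3, -0.68 and 0.40 for mycb, and 0.17 and 0.23 for prkcbb. It was -1.72 and -2.38 for cpn1, -1.07 and -1.55 for noc4l, 1.92 and 1.96 for sc5d, and -1.37 and -1.63 for rarres3l. No test was made of the difference between TU and the other strains.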
